A study of Mus musculus with 10 samples.

Results

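The genes described here are 9 genes of cholesterol synthesis and its control, measured by bulk RNA sequencing in brain endothelial cells (BECs) of APP/PS1 and control mice. They were chosen by name. Sqle, Fdft1, Fdps, Idi1, Lss, Cyp51 and Hmgcs1 encode enzymes, whereas Srebf2 encodes a transcription factor and Insig1 a membrane protein that holds it back, so the set is not made of enzymes alone. Of the 9 listed genes, 8 were among the 14106 genes analysed here. Fdps, which encodes farnesyl diphosphate synthase, was not among them. The BECs were the CD31+CD45- cells of the cortex of female mice that were 1 year old. One group of 5 libraries came from APP/PS1 mice, which carry the APPswe and PSEN1dE9 transgenes and deposit amyloid-beta in the brain, and the other 5 came from age-matched control mice of the same C3H/BL6 background. The study describes the expression of the mutant precursor protein as ubiquitous. Libraries were numbered 1 to 5 in each group and compared in pairs of the same number. It is not given in the sources used here if animals were pooled, and p-values measure the spread between these libraries, which may be technical.

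Cholesterol is built from acetyl-CoA. The early steps form mevalonate and then the isoprenoid units that join into farnesyl diphosphate. Squalene synthase commits farnesyl diphosphate to sterols, and the enzymes after it close the ring and trim lanosterol down to cholesterol. The pathway is switched on by SREBP-2, the product of Srebf2. When membranes are rich in sterol, the Insig proteins keep SREBP-2 and its escort Scap in the endoplasmic reticulum. When sterol is low, SREBP-2 is cut in the Golgi apparatus and enters the nucleus. There it turns on the synthesis genes, genes of lipoprotein uptake, Insig1 and its own gene. The blood-brain barrier separates the cholesterol of the brain from that of plasma, and glia are known for making most of what the adult brain uses. Endothelial cells of the barrier can take up lipoproteins from blood and also make sterol themselves.

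Values are log2 CPM, which the authors had corrected for batch before they deposited them. Counts were scaled to an effective size of each library, which was 0.964 to 1.034 times the total of its adjusted counts. In the median of the 14106 genes the means of the 5 pairs had an SD of only 0.0035 log2 units. For the genes described here they were also nearly equal. In such genes a control library above the common level has an APP/PS1 partner below it by nearly the same amount, and the groups overlap unless all 5 pairs differ in 1 direction. The adjusted counts behind the values summed to between 22371766 and 126686149 per library, and replicate 1 had the lowest total in both groups. Between 43 and 20505 adjusted counts stood behind a value of a member. The 2 libraries of replicate 3 stood apart from the other 8 on the first principal component of the 500 most variable genes, which held 59.1% of their variance, with scores of −56.8 and −52.6 against 1.3 to 25.8, so that pair means were not equal in every gene.

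SREBP-2 is known to bind sterol regulatory elements in promoters, often beside NF-Y and Sp1. RefSeq promoter windows of GRCm38.p6 were held for 6 of the 9 genes (Hmgcs1, Idi1, Lss, Cyp51, Insig1 and Srebf2). Each window held 250 bases before and 50 bases after the RefSeq start of the gene and was searched on both strands for 3 motifs. This start is not that of the GENCODE M21 gene positions given below. The core of a sterol regulatory element, TCACCCCA, was found in the windows of Hmgcs1 and Srebf2 and in 1.56% of 32851 mouse promoter windows. It began at position −137 from the RefSeq start of Hmgcs1 and at position −162 from that of Srebf2. CCAAT, the box bound by NF-Y, was found in all 6 windows and in 37.4% of all windows. GGGCGG, the GC box bound by Sp1, was also in all 6 and in 35.7% of all windows. None of these motifs lies within another. A match is a description of letters, and a window without one says nothing about the factor. The promoters of 3 genes are printed 5′ to 3′ up to the RefSeq start. By the GENCODE M21 starts, 82147181 for Srebf2 and 8885501 for Idi1, the printed stretches of these 2 also hold bases after the start. The 3 genes were chosen because Hmgcs1 and Idi1 had the widest spread between pairs and Srebf2 the regulator's own sterol element. Capitals mark TCACCCCA and CCAAT, the latter read as ATTGG where it lies on the opposite strand. They lie on the plus strand of GRCm38.p6 at chr13:119690101-119690350 for Hmgcs1, at chr15:82147019-82147268 for Srebf2 and at chr13:8885356-8885605 for Idi1.
Hmgcs1: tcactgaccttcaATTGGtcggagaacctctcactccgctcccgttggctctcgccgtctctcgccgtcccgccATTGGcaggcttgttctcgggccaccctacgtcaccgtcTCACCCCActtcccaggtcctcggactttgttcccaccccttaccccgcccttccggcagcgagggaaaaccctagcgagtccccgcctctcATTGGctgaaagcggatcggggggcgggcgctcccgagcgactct
Srebf2: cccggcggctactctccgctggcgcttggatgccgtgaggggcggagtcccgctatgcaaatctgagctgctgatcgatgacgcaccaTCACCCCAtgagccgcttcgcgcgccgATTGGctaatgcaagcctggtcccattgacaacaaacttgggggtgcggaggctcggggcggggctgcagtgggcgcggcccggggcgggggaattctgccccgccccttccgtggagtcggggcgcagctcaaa
Idi1: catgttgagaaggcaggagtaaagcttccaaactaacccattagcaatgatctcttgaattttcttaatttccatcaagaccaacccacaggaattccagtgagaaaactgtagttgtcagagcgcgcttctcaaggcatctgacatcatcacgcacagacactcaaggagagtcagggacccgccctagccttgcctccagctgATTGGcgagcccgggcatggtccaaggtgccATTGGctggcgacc

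No cholesterol gene of the 8 measured passed the test for a difference between the genotypes. The question behind the comparison was which genes change in BECs of a mouse model of Alzheimer's disease. Of the 8 genes, 6 had a higher mean in APP/PS1 libraries and 2, Idi1 and Lss, a lower mean, with log2 fold changes from −0.10 for Idi1 to 0.25 for Hmgcs1. By limma with the pair as a term, 0 of 8 passed an adjusted p under 0.05, as did 0 of the 14106 genes (0.0%). The study itself, also with limma, reports genes at an adjusted p under 0.05 with at least a 2-fold change. Its methods name no pair term. Without that term the fit here called 648 of all genes and 0 members at an adjusted p under 0.05, with no cutoff on the fold change. That fit ignores the degrees of freedom used up by the batch correction, so its p-values come out too small. At an unadjusted p under 0.05 there were 0 of 8 members by limma and also 0 by limma-voom, against 8.03% and 7.27% of all genes. Without replicate 2, a pair in which Srebf2 was lower in APP/PS1, there was 1 by limma, Srebf2. That fit called 5 of all genes at an adjusted p under 0.05. Its share of all genes at an unadjusted p under 0.05 is not given here. None of the 8 differed in 1 direction in all 5 pairs, which 7.99% of all genes did. A higher mean in APP/PS1 was found for 75% of the members and 48.2% of all genes, and the median log2 fold change was 0.05 in the members and −0.0038 in all genes. The 95% confidence intervals of the 8 fold changes reached from 0.757 at the lowest, for Idi1, to 1.58 at the highest, for Hmgcs1, and a change of 2-fold lay outside all 8 intervals. Fold changes within an interval are compatible with these values, and an interval is not a limit of detection. An exact two-sided test that flips the signs of 5 pairs can reach p = 0.0625 at the lowest for a gene.

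**Figure D1:**
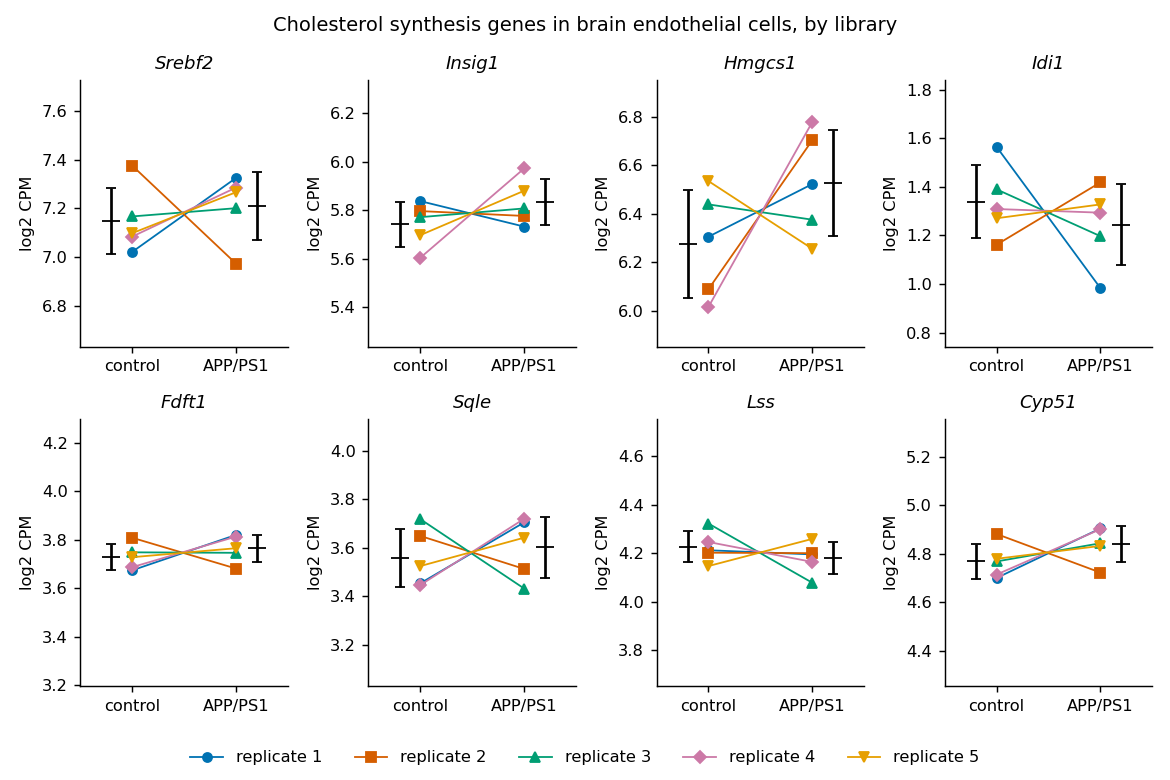
Level of each of the 8 genes (y axis, log2 CPM, the same span of 1.1 in every panel) in control and APP/PS1 libraries (x axis). Lines join libraries of the same replicate number, and black bars beside them are the mean and SD of 5 libraries. The lines cross in every panel, they are steepest for Hmgcs1 and Idi1, and the groups overlap for all 8 genes.

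Srebf2 encodes SREBP-2 and lies on the plus strand of chromosome 15 from 82147181 to 82205379 in GRCm38. Its level was 7.02, 7.38, 7.17, 7.08 and 7.10 log2 CPM in control replicates 1 to 5. In APP/PS1 replicates 1 to 5 it was 7.33, 6.97, 7.20, 7.29 and 7.27 log2 CPM. Of the 5 APP/PS1 libraries, 4 lay above their control partner, and replicate 2 went the other way by more than any of them, with a difference of −0.40 against 0.03 to 0.31. Means and SDs were 7.15 ± 0.14 for control and 7.21 ± 0.14 for APP/PS1 (n = 5). The log2 fold change was 0.06 (standard error 0.11, 95% interval −0.21 to 0.33, adjusted p = 0.92 from limma). Without replicate 2 it was 0.18, with an unadjusted p of 0.0367 and an adjusted p of 0.328 by limma, and leaving out replicate 1 gave 0.0003. The microRNA gene Mir33 lies within Srebf2 on the same strand and was not among the genes analysed here.

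Insig1 encodes the sterol-sensing anchor that holds Scap and SREBP-2 in the endoplasmic reticulum and is itself a target of SREBP-2. The gene, on the plus strand of chromosome 5 from 28071363 to 28078662, overlaps no other annotated gene. Its level was 5.84, 5.80, 5.77, 5.60 and 5.70 log2 CPM in control replicates 1 to 5. The APP/PS1 replicates were at 5.73, 5.78, 5.81, 5.97 and 5.88 log2 CPM. APP/PS1 replicate 4 was the highest and its control partner the lowest of the 10 libraries, and the groups overlapped. Differences within pairs ran from −0.11 in pair 1 to 0.37 in pair 4. The limma fit gave a log2 fold change of 0.09 (standard error 0.0793, 95% interval −0.10 to 0.29, adjusted p = 0.845). Leaving out replicate 4 gave 0.02 and leaving out replicate 1 gave 0.14.

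Hmgcs1, the cytosolic synthase that joins acetyl-CoA and acetoacetyl-CoA into HMG-CoA, had the widest spread of the 8 genes. It lies on chromosome 13 from 119690379 to 119708260, plus strand. Its level was 6.30, 6.09, 6.44, 6.02 and 6.53 log2 CPM in control replicates 1 to 5. In APP/PS1 BECs it was 6.52, 6.70, 6.37, 6.78 and 6.25 log2 CPM. The APP/PS1 library was the higher in pairs 1, 2 and 4 and the lower in pairs 3 and 5, and the groups overlapped over most of their range. The differences were 0.22, 0.61, −0.06, 0.76 and −0.28 in pairs 1 to 5. Their SD of 0.44 was larger than that of 97.6% of 1802 genes with a mean level within 0.5 log2 CPM of its own. Means and SDs were 6.28 ± 0.22 for control and 6.53 ± 0.22 for APP/PS1 (n = 5). On average the gene was 0.25 log2 units higher in APP/PS1 (standard error 0.168, 95% interval −0.16 to 0.66, adjusted p = 0.812 from limma). Leaving out replicate 4 gave 0.12 and leaving out replicate 5 gave 0.38.

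A gene on the opposite strand differed in the same direction in each pair. Gm48342, annotated as an antisense RNA, lies inside Hmgcs1 from 119698360 to 119704549 on the minus strand. The exons of the 2 genes share 557 bases, which is 12.1% of the exon length of Hmgcs1 and 29.3% of that of Gm48342. The differences of Gm48342 within pairs 1 to 5 were 0.24, 0.42, −0.23, 0.80 and −0.08. Among the other 14105 genes it was the nearest to Hmgcs1 by the root mean square distance of the 5 differences, at 0.145 log2 units. It was named after its values were seen. Its log2 fold change was 0.23 (adjusted p = 0.815 from limma). Whether reads were counted by strand is not given in the sources used here, so reads of Gm48342 and Hmgcs1 may not be told apart. At 1.25 log2 CPM in control libraries, against 6.28 for Hmgcs1, Gm48342 was the far weaker of the 2.

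**Figure D2:**
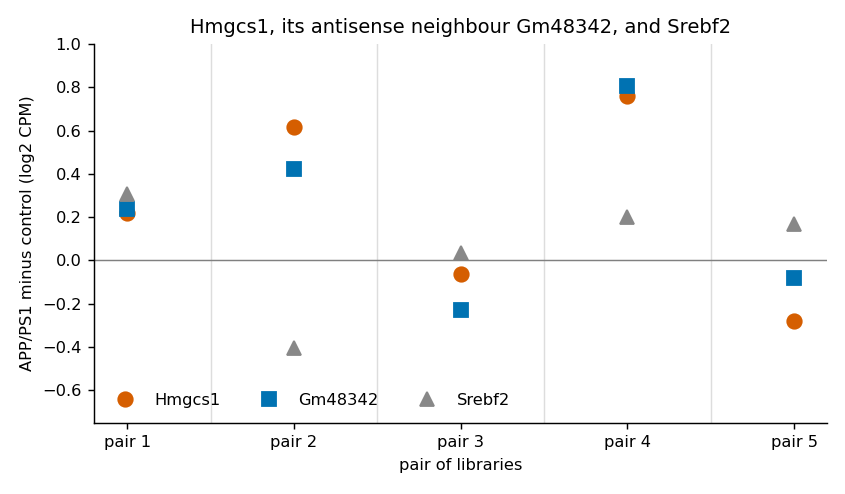
Difference between the APP/PS1 and the control library (y axis, log2 CPM) in each of the 5 pairs (x axis) for Hmgcs1, for Gm48342 on its opposite strand, and for Srebf2. Hmgcs1 and Gm48342 have the same sign in each pair, from −0.28 and −0.08 in pair 5 to 0.76 and 0.80 in pair 4, whereas Srebf2 has the opposite sign in pairs 2, 3 and 5.

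Idi1, the isomerase that converts isopentenyl diphosphate to dimethylallyl diphosphate, was the weakest of the 8 genes. The gene spans chromosome 13 from 8885501 to 8892451, plus strand. Its level was 1.57, 1.16, 1.39, 1.31 and 1.27 log2 CPM in control replicates 1 to 5. The APP/PS1 values were 0.98, 1.42, 1.20, 1.29 and 1.33 log2 CPM. Replicate 1 held both ends of the range, highest in the control and lowest in the APP/PS1 library, and the other 4 pairs differed by −0.19 to 0.26. The lowest of its values rested on 43 adjusted counts, in a library of the pair with the lowest totals. The mean difference was −0.10 log2 units (standard error 0.124, 95% interval −0.40 to 0.21, adjusted p = 0.892 from limma). Without replicate 1 it was 0.03, so its sign rested on that pair. The next enzyme, Fdps, has no value here. It lies on chromosome 3 from 89093588 to 89101959, minus strand, and shares 1124 exon bases with Gm43738, an overlapping protein-coding gene on the same strand that was likewise not among the genes analysed here.

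Fdft1 encodes squalene synthase, the first enzyme used by sterols alone. It spans chromosome 14 from 63145150 to 63179578, minus strand. Its level was 3.67, 3.81, 3.75, 3.69 and 3.73 log2 CPM in control replicates 1 to 5. In the APP/PS1 replicates it was 3.82, 3.68, 3.75, 3.81 and 3.77 log2 CPM. These were the steadiest values of the 8 genes, and the groups covered nearly the same range. A log2 fold change of 0.04 was estimated (standard error 0.0561, 95% interval −0.10 to 0.17, adjusted p = 0.908 from limma). Leaving out replicate 1 gave 0.0087 and leaving out replicate 2 gave 0.08, and the sign turned when libraries were scaled by library size alone. Its exons share 774 bases with Ctsb on the opposite strand, which encodes the lysosomal protease cathepsin B and had a log2 fold change of −0.04.

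Sqle encodes squalene epoxidase, which adds oxygen to squalene and is a control point of the pathway. It lies on chromosome 15 from 59315077 to 59331192, plus strand, with no overlapping gene. Its level was 3.45, 3.65, 3.72, 3.45 and 3.53 log2 CPM in control replicates 1 to 5. APP/PS1 replicates 1 to 5 were at 3.70, 3.51, 3.43, 3.72 and 3.64 log2 CPM. Pairs 1, 4 and 5 were higher and pairs 2 and 3 lower in APP/PS1 by similar amounts. With opposite signs in the pairs, the log2 fold change was 0.04 (standard error 0.0992, 95% interval −0.20 to 0.29, adjusted p = 0.942 from limma). Its sign turned without replicate 1 and without replicate 4.

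Lss, the lanosterol synthase that folds epoxidised squalene into the first sterol, lies on chromosome 10 from 76531588 to 76557138, plus strand. Its level was 4.21, 4.20, 4.32, 4.25 and 4.15 log2 CPM in control replicates 1 to 5. The APP/PS1 libraries had 4.20, 4.20, 4.08, 4.16 and 4.26 log2 CPM. Pairs 1 and 2 hardly differed, and pair 3 had the largest difference, −0.24. The estimate for APP/PS1 was −0.05 log2 units (standard error 0.062, 95% interval −0.20 to 0.11, adjusted p = 0.894 from limma). It was 0.0028 without replicate 3.

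Cyp51 encodes the cytochrome P450 that demethylates lanosterol. It lies on chromosome 5 from 4081145 to 4104746, minus strand, and shares 166 exon bases with Akap9, a scaffold gene of the opposite strand. Its level was 4.70, 4.88, 4.77, 4.71 and 4.78 log2 CPM in control replicates 1 to 5. In the APP/PS1 replicates it was 4.91, 4.72, 4.84, 4.90 and 4.83 log2 CPM. As for Srebf2, all pairs but pair 2 were higher in APP/PS1, and the groups overlapped because of that pair. Its log2 fold change was 0.07 (standard error 0.0665, 95% interval −0.09 to 0.24, adjusted p = 0.849 from limma). Leaving out replicate 1 gave 0.04 and leaving out replicate 2 gave 0.13. The estimate kept its sign in each of 13 alternative analyses, as did those of Hmgcs1, Insig1 and Srebf2, and none of these passed the adjusted threshold in any of them.

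The members moved apart between pairs. Their median difference was 0.18 in pair 1, −0.07 in pair 2, −0.03 in pair 3, 0.19 in pair 4 and 0.08 in pair 5. Of the 8 genes, 5, 2, 3, 6 and 7 were higher in APP/PS1 in pairs 1 to 5. Pair 2 was the pair in which Hmgcs1 and Idi1 were higher while the other 6 were lower. In pair 5 these 6 were all higher, and Hmgcs1 was the 1 gene that was lower. This grouping was read from the values and was not tested. Genes of a pair share their libraries, so they do not count as separate observations.

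**Figure D3:**
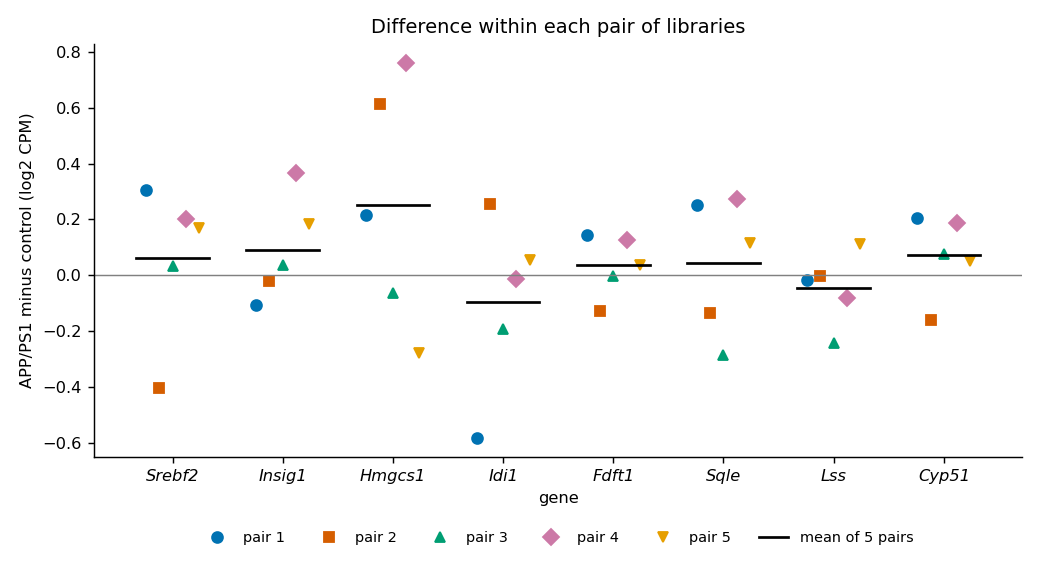
Difference between the APP/PS1 and the control library of each pair (y axis, log2 CPM) for the 8 genes (x axis), with a symbol for each pair and a black line at the mean of 5 pairs. Each gene has pairs on both sides of 0, and the spread is widest for Hmgcs1, from −0.28 to 0.76, and narrowest for Fdft1, from −0.13 to 0.15.

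Levels per length were compared as CPM per kilobase of annotated exon. The length joins all annotated exons of a gene, and RNA in these cells may use fewer of them. It was 10787 bases for Lss and 3093 to 7184 for the other genes measured. In control libraries Srebf2 was at 19.8 ± 1.96, Insig1 at 17.3 ± 1.09 and Hmgcs1 at 17.0 ± 2.59 (SD, n = 5), and the ranges of these neighbours overlapped over all 10 libraries. Cyp51 followed at 6.18 ± 0.312 and Fdft1 at 3.13 ± 0.117. Sqle was at 2.13 ± 0.18, Lss at 1.73 ± 0.0781 and Idi1 at 0.715 ± 0.0773. From Hmgcs1 downwards the ranges of neighbours did not overlap, the closest being Sqle, with a lowest library of 1.94, and Lss, with a highest of 1.85. The place of Lss rests on its length. Before division by length its control mean, 4.23 log2 CPM, was above those of Fdft1 (3.73) and Sqle (3.56). The order of means in APP/PS1 libraries differed in that Hmgcs1, at 20.2 ± 3.05, lay above Insig1, at 18.5 ± 1.23. Among these 8 genes, Srebf2 and Insig1 were thus more abundant per length than the enzymes other than Hmgcs1.

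**Figure D4:**
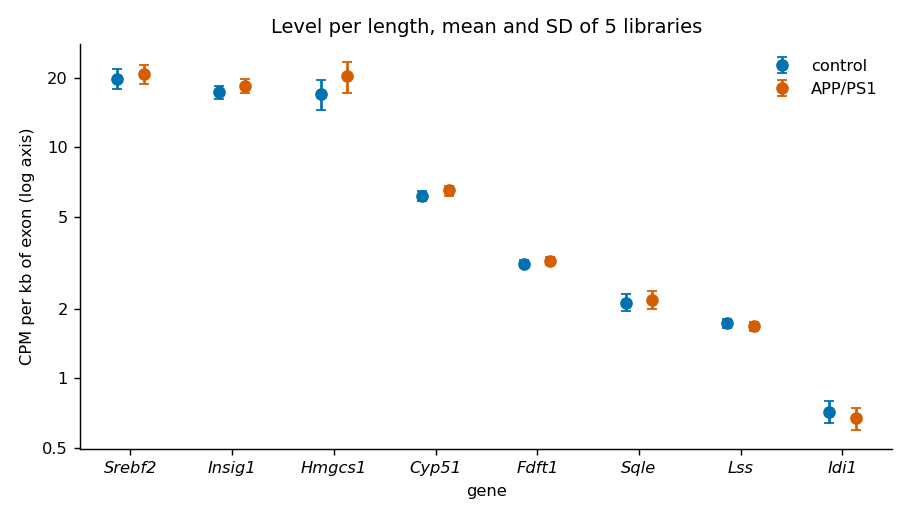
Level per length (y axis, CPM per kilobase of exon, log axis) of the 8 genes (x axis, in order of the control mean). Points are means and bars SDs of 5 control and 5 APP/PS1 libraries. The control means fall from 19.8 for Srebf2 to 0.715 for Idi1, and the bars of the 2 groups overlap for each gene.

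The rest of the pathway was examined with 7 lists that held 61 genes among those analysed, and limma called 0 of them. An unadjusted p under 0.05 was reached by 2 of the 61 by limma and 1 by limma-voom, against 8.03% and 7.27% of all genes. Of the 61, 23 (37.7%) were higher and 38 lower in APP/PS1, against 48.2% higher over all genes. In 1 direction in all 5 pairs there were 1 higher and 2 lower genes, Scarb1, Erlin2 and Nr1h3, against 7.99% of all genes. The 14 other synthesis enzymes were 7 higher and 7 lower, with a median log2 fold change of −0.0039. None of the 14 differed in 1 direction in all 5 pairs.

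Of 10 genes of SREBP control, which were Srebf1 and genes for proteins that move, hold, cut or degrade parts of the system, 1 had a higher mean (Srebf1, at 0.0042) and 9 a lower mean, or 10% higher against 48.2% of all genes, within a narrow span of log2 fold changes from −0.07 to 0.0042. Scap, the escort, had a log2 fold change of −0.04 and Insig2, the second anchor, one of −0.04. Erlin2, which takes part in protein degradation at the endoplasmic reticulum, was lower in all 5 pairs by 0.03 to 0.11 on the log2 scale (log2 fold change −0.07, adjusted p = 0.788 from limma). The 8 genes of uptake and intracellular transport were 6 higher and 2 lower, with a median log2 fold change of 0.03. Not all of the 8 favour uptake, so this count gives no direction for uptake itself. Scarb1, the high-density lipoprotein receptor, was higher in all 5 pairs by 0.0003 to 0.13, with a log2 fold change of 0.07 (adjusted p = 0.792 from limma).

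Of 4 genes of efflux and the liver X receptors, 1 was higher and 3 were lower. Nr1h3, the liver X receptor alpha that senses oxysterols, was at 3.13 to 3.38 log2 CPM in control and 2.85 to 3.10 in APP/PS1 libraries. It was named because it was lower in all 5 pairs, and 7.99% of all genes differed in 1 direction in all pairs. Where pair means are nearly equal, such groups do not overlap, and those of Erlin2 and Scarb1 did not either. Nr1h3 differed by −0.21 log2 units (standard error 0.0817, adjusted p = 0.608 by limma). Abca1, the exporter that liver X receptors turn on, had a log2 fold change of 0.13, with pairs from −0.24 to 0.61. Of 7 genes that make, break down or bind oxysterols or sterol esters, 1 was higher and 6 were lower, with a median of −0.17. The median of these 7 genes was −0.52 in pair 1 but 0.04 in pairs 4 and 5, and 6 of the 7 were higher in pair 5. Ch25h, which makes an oxysterol that blocks SREBP-2 processing, differed by −0.50, −1.16, −0.64, 0.74 and 0.18 in pairs 1 to 5, a log2 fold change of −0.27 (95% interval −0.96 to 0.41, adjusted p = 0.862 from limma). The 10 genes of fatty acid synthesis under SREBP-1 were 3 higher and 7 lower, with a median of −0.12. Among them Me1, the malic enzyme, chosen after its values were seen as the other gene with an unadjusted p under 0.05, was lower in 4 of 5 pairs and had a log2 fold change of −0.24 (adjusted p = 0.608 from limma). The 8 genes of the isoprenoid branch were 4 higher and 4 lower.

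**Figure D5:**
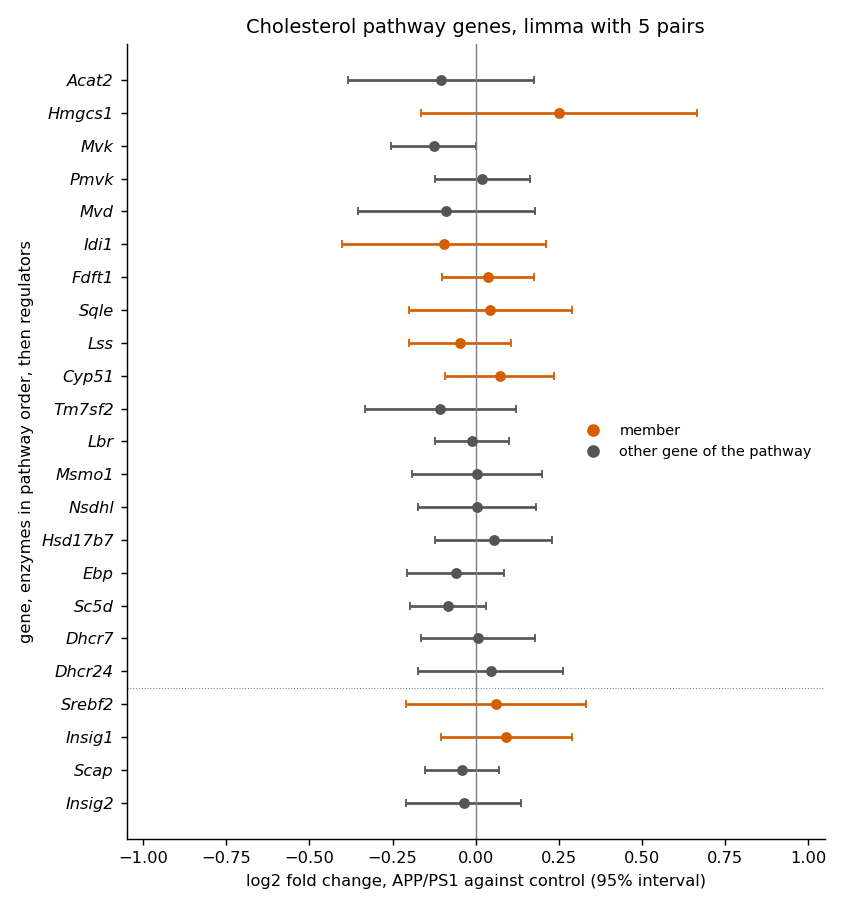
Log2 fold change of APP/PS1 against control with its 95% interval (x axis, limma with 5 pairs) for 19 of the 20 enzymes of cholesterol synthesis analysed, in pathway order and, below the dotted line, 4 genes of control (y axis). Members are orange and other genes grey. All intervals shown for members cross 0, and that of Hmgcs1 is the widest.

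Genes with a like pattern were sought by the root mean square distance of their 5 differences from the mean differences of the members, which were 0.05, 0.0031, −0.08, 0.23 and 0.06 in pairs 1 to 5. Among 11739 genes outside the lists with a mean level of at least 1.29 log2 CPM, the 5 nearest were Cct7, Smyd3, Rnf185, Calr and the processed pseudogene Gm4973, at distances from 0.0228 to 0.0363. Their log2 fold changes lay between 0.03 for Cct7 and 0.08 for Gm4973. In all, 600 of these genes lay within 0.1 of the mean pattern.

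Markers of several other cell types had lower levels in APP/PS1 than in control libraries, although no marker passed the adjusted threshold by limma. In bulk samples, fewer cells of a type and less RNA per cell cannot be told apart. Of the 12 endothelial markers, 10 had a higher mean in APP/PS1. Sums of the 12 were 19980 to 20780 CPM for control and 20780 to 21700 CPM for APP/PS1. Pecam1, which encodes CD31, averaged 10.76 log2 CPM for control and 10.84 for APP/PS1. The median log2 fold change of the 12 markers was 0.06, against 0.05 for the members and −0.0038 for all genes. Whether the members differed from endothelial markers was not tested. All 7 oligodendrocyte markers analysed were lower in APP/PS1, with sums of 39.5 to 275 CPM in control and 32.6 to 141 in APP/PS1 libraries, and 2 of them were at 0 in at least 1 library. Their summed log2 ratio was −3.08, 1.83, −2.19, −2.30 and −2.52 in pairs 1 to 5, and pair 2 was the 1 pair with a higher sum in APP/PS1. Astrocyte markers, of which 8 of 9 were lower, summed to 272 to 311 CPM in control and 269 to 321 in APP/PS1 libraries. All 7 mural markers were lower, with sums of 505 to 848 against 253 to 496 CPM. Their summed log2 ratios in pairs 1 to 5 were −1.74, −0.35, −0.37, −1.31 and −0.02, and were lowest in pairs 1 and 4. The same held for choroid plexus markers and markers of oligodendrocyte precursors, but not for the other lists. In these pairs the median difference of the members was highest. This match was seen in the values and was not tested. Both choroid plexus markers analysed were lower, with sums of 40.1 to 78.1 against 14.99 to 39.4 CPM. The 3 erythroid markers had lower means, with sums of 26.1 to 214 against 12.8 to 135 CPM. Their sum was higher in APP/PS1 in pairs 4 and 5, with log2 ratios of 0.77 and 2.37. The 1 fibroblast marker analysed had a lower mean, at 0.763 to 1.63 against 0.542 to 1.30 CPM, and was higher in pair 5. All 5 markers of oligodendrocyte precursors were lower, with sums of 24.4 to 38.2 against 14.4 to 24.2 CPM. Sums of the 6 genes that respond to dissociation, all with a higher mean in APP/PS1, were 12950 to 15700 against 14880 to 18190 CPM. In pairs 1 and 2 the sum was slightly lower in APP/PS1, with log2 ratios of −0.08 and −0.04. In pairs 4 and 5 the ratios were 0.49 and 0.41. Microglial markers summed to 54.5 to 62.9 CPM in control and 51.8 to 60.1 in APP/PS1 libraries, and 4 of the 6 analysed were lower. The 4 neuronal markers analysed summed to 93.7 to 117 against 97.8 to 122 CPM, and the defining neuronal marker Rbfox3 was not among the genes analysed. The part of these cells in the levels of the cholesterol genes was not tested.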

How the data were processed

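RNA from BECs was sequenced in 5 control and 5 APP/PS1 libraries. By the study's methods, the authors used STAR for alignment to mm10 and HTSeq-count for counts per gene, removed weakly expressed genes with edgeR (filterByExpr), took log CPM and corrected for batch with ComBat. Versions are not given in the sources used here. The authors deposited log2 CPM of 14106 genes. The deposited log2 values converted back to whole adjusted counts (tolerance 0.05) for 100% of values, with a prior count of 3. These are not reads. ComBat applied to log CPM would not in general leave whole numbers, so which correction made the values is not settled here.

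All Ensembl identifiers were matched to GENCODE M21 (GRCm38). lmFit and eBayes of limma 3.58.1 (R 4.3.3) were fitted to all 14106 genes with genotype and replicate number, with Benjamini-Hochberg adjustment and a threshold of 0.05. Libraries were paired by replicate number, after the batch colours of the study's MDS plot (1 library of each genotype per batch). The labels differ, since replicates 4 and 5 share a batch there, which makes 4. Deviations of libraries of a pair from their group means were correlated at −0.97 to −0.939 across 10873 genes, a sign fixed by the correction. The fit was also run on simulated data, and the outcome is not given here. Alternatives were no replicate block, 4 batches, a mean-variance trend, a prior count of 0.5, other scalings, a filter at 1 log2 CPM, limma-voom and each replicate left out. Members and lists were chosen with earlier results of these data known. Named genes were all members, set genes (of which Insig2, Scap, Abca1 and Ch25h are given), up to 2 genes per list with the largest change of 1 direction in all 5 pairs, and the 5 genes nearest to the mean pattern of the members. Some genes of the lists are not reported here.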

Additional observations from a re-analysis of the deposited data

How the results depend on the processing

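No member passed an adjusted p under 0.05 in any of 13 alternatives, and the smallest adjusted p of a member by limma was 0.306, for Hmgcs1 without the replicate block. Without the replicate block 648 of all genes and 0 members were called, against 0 and 0 with the pairing. The fit without the block counted 8 residual degrees of freedom in place of 4. The batch correction had already made pair means nearly equal in most genes, so the p-values of that fit come out too small. Of 104 values of single members, 98 kept their direction and 6 turned. These were Fdft1 with library size alone (−0.0011), Idi1 by limma-voom (0.0057) and without replicate 1 (0.026), Lss without replicate 3 (0.0028), and Sqle without replicate 1 (−0.0085) and without replicate 4 (−0.014). Library size alone moved the median over all genes from −0.0038 to −0.04 log2 units, and that over the members from 0.05 to 0.02. Leaving out 1 replicate gave log2 fold changes from −0.18 to 0.03 for Idi1, from −0.086 to 0.0028 for Lss and from −0.01 to 0.13 for Sqle, member medians from 0.02 to 0.10 and between 5 and 7 members higher in APP/PS1. With 4 residual degrees of freedom and batch-adjusted counts in place of reads, no counting error could be given, and the 95% intervals of the 8 fold changes reached from 0.757 to 1.58.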
